A study of Homo sapiens with 6 samples.

Results

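The KLF genes encode Krüppel-like factors, zinc finger proteins that bind GC-rich and CACCC-containing DNA near promoters. Here 10 of them were followed (KLF2, KLF3, KLF4, KLF6, KLF7, KLF9, KLF10, KLF11, KLF13 and KLF16), picked by gene symbol from the 58395 genes in the count tables. All 10 passed the filter on low counts, among 16542 genes tested. The cells were THP-1, a line from an acute monocytic leukaemia grown in RPMI medium with 10% fetal bovine serum. One group received 1 µM monensin, a polyether ionophore that exchanges sodium ions for protons across membranes, for 16 h, and the other had no exposure; the labels name no vehicle. Each group had 3 libraries of total RNA, made with a directional kit and read as single 75 nt reads. Nothing in the labels says that the 3 libraries came from separate cultures, and a p-value here measures library-to-library spread that may be technical.

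Reads assigned to genes came to between 22975888 and 24774546 per monensin library and between 24159573 and 25710513 per untreated library. All 8 monocytic markers had reads, and their counts per 1000000 of TMM-scaled library size (CPM) summed to 1634 to 1702 in monensin libraries and 1782 to 1857 in untreated libraries. Single markers moved in both directions within this sum. LYZ had 292 CPM with monensin and 791 CPM in untreated libraries, and CEBPA had 799 and 499 CPM. Log2 fold changes, monensin over untreated, were -1.44 for LYZ, -0.63 for MPO and -0.40 for CD33. They were 0.68 for CEBPA, 0.34 for SPI1 and 2.30 for CD14, and -0.03 for both ITGAM and CSF1R. Markers of T cells summed to 0 in monensin libraries and to at most 0.0401 CPM in untreated libraries, with CD3E and CD3G at 0. None of the 3 epithelial markers had a read in the 6 libraries. RNA from bulk cells does not tell fewer cells of a type from less RNA per cell.

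All Krüppel-like factors share a set of zinc fingers at the C-terminal end, and the remainder of each protein decides which cofactors it recruits. KLF2, KLF4, KLF6 and KLF7 carry activation domains; KLF3 recruits the C-terminal binding proteins (CtBP) as a repressor; and KLF9, KLF10, KLF11, KLF13 and KLF16 bind the SIN3 corepressor. In the monocyte lineage, KLF4 promotes monocyte differentiation and KLF2 restrains inflammatory activation. Several of the genes are early-response genes whose RNA is short-lived.

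Promoter sequence was available in RefSeq (GRCh38.p14, 250 bases before to 50 bases after the transcript start) for 8 of the 10 genes; KLF3 and KLF10 were the other two. The 4 promoters printed here are those of 3 genes that were higher with monensin and of KLF11, the gene that was lower. They are KLF2 at chr19:16324576-16324875 on the plus strand, KLF4 at chr9:107489720-107490019 on the minus strand, KLF6 at chr10:3785160-3785459 on the minus strand, and KLF11 at chr2:10043971-10044270 on the plus strand, the second of 2 KLF11 entries. Capitals mark matches, on either strand, to CTA and TAG set 4 bases apart, the outer letters of the MEF2 core. Any 4 bases were allowed between them, whereas MEF2 sites hold only A and T there. Capitals also mark the core of the cyclic AMP response element (TGACGT), the E-box CACGTG and the CACCC box, on either strand.
KLF2: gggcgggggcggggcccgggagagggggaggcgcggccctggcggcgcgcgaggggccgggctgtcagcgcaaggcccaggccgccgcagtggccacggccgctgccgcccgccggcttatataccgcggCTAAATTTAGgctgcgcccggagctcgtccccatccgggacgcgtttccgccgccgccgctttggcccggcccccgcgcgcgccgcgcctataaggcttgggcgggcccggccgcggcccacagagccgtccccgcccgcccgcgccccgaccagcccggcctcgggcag
KLF4: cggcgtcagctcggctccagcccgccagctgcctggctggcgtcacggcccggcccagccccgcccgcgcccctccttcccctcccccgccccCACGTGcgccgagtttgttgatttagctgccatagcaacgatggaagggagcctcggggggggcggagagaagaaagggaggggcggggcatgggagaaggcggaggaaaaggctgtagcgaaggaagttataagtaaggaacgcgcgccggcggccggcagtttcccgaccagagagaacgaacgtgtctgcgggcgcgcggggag
KLF6: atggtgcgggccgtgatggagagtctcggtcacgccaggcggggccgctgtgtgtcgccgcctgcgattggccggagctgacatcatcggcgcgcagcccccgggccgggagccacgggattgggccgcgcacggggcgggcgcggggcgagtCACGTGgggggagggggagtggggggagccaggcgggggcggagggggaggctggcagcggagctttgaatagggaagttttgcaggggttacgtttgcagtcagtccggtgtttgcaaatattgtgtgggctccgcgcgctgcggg
KLF11: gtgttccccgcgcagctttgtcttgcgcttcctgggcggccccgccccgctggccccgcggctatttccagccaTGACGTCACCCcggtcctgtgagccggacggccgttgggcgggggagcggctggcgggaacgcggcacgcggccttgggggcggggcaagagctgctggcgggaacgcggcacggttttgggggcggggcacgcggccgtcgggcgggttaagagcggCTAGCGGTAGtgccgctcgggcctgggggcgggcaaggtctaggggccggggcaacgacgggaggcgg

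GC made up 80.7% of the KLF2 promoter, 69.0% of the KLF4 promoter, 70.7% of the KLF6 promoter and 75.3% of the KLF11 promoter shown, against a median of 58.7% over all 34796 promoters. In the KLF2 promoter the MEF2 core match, CTAAATTTAG, began 120 bases before the transcript start. CTA and TAG at the same spacing, whatever the bases between them, occur in 2.74% of all promoters of this length. MEF2 factors, acting below the kinase ERK5, are known activators of KLF2. An E-box began 157 bases before the start in KLF4 and 97 bases before it in KLF6, and 7.20% of all promoters hold one. The KLF11 promoter held a cyclic AMP response element core that read on both strands, overlapping a CACCC box. Of all promoters, 7.97% hold that core and 59.8% hold CACCC. The KLF11 promoter also held CTAGCGGTAG, beginning 18 bases before the start. This stretch has GCGG between CTA and TAG, where MEF2 sites hold only A and T, and is not a MEF2 core. A match to letters is a description of the sequence and not evidence that a factor binds there.

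Of the 10 KLF genes, 7 rose and 1 fell with monensin at a Benjamini-Hochberg adjusted p under 0.05 in edgeR's quasi-likelihood test. The 7 were KLF2, KLF3, KLF4, KLF6, KLF7, KLF10 and KLF16, and the 1 was KLF11; KLF9 and KLF13 did not pass. Across all tested genes 34.1% were called higher and 33.7% lower, so a call by itself is common in this comparison. Fold changes were modest, between 0.828-fold and 1.82-fold for the 8 called genes, and none reached the 2-fold size that 13.2% of tested genes reached with a call. The libraries of the 2 groups did not overlap for 8 of the 10 genes, against 71.1% of all tested genes. The median log2 fold change was 0.35 over the 10 genes and 0.02 over all tested genes. The 10 were chosen with earlier results of these data known, so these counts and this median do not stand for the whole family. Among the 4 other KLF genes tested the median was -0.10, with 1 called higher and 1 lower. With trends in GC content and transcript length removed, 5 of the 10 were called higher and 2 lower, against 34.9% and 33.0% of tested genes. The authors' deposited table of 2410 regulated genes, whose smallest absolute log2 fold change is 1.00, held 0 of the 10.

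**Figure D1:**
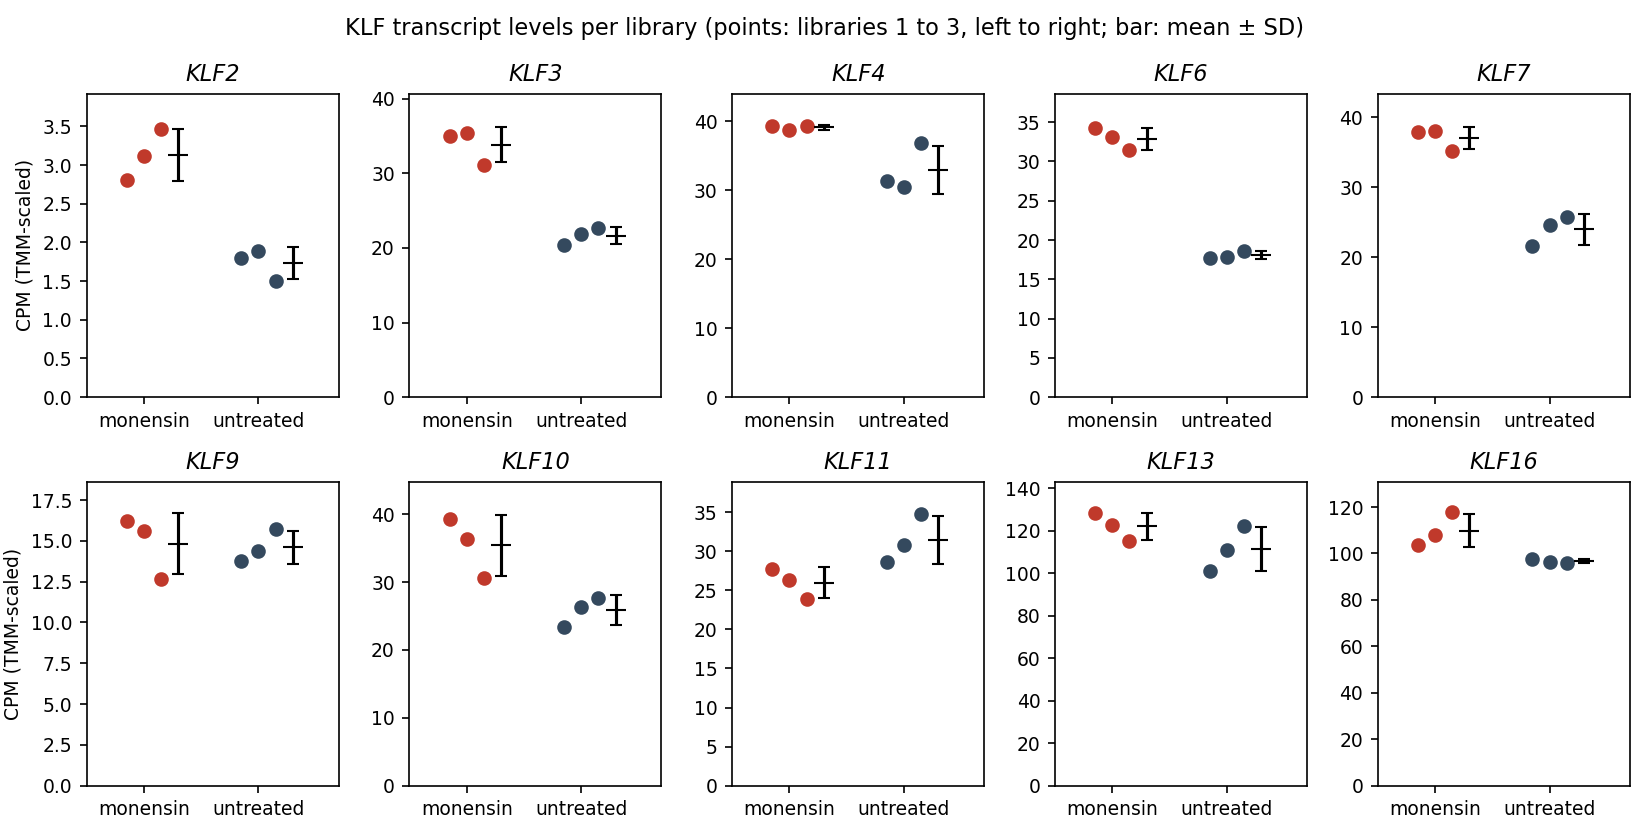
Level of each KLF gene in CPM in the 3 monensin libraries and, to their right, the 3 untreated libraries; points are libraries and bars mark group means with SD. All 3 monensin points lie above the untreated points for KLF2, KLF3, KLF4, KLF6, KLF7, KLF10 and KLF16, lie below them for KLF11, and mix with them for KLF9 and KLF13.

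KLF6 and KLF2, both activators, had the largest fold changes of the 10 genes under TMM scaling; with the GC and length trends removed KLF2 was at 0.63, below KLF6 (0.97), KLF3 (0.85) and KLF7 (0.80). KLF6, a known regulator of collagen and of the cyclin-dependent kinase inhibitor CDKN1A, lies on chromosome 10 (GRCh38, 3775996 to 3785281, minus strand). It had 34.2, 33.1 and 31.4 CPM in monensin libraries, against 17.7, 17.9 and 18.7 CPM in untreated libraries. The lowest monensin library stood well above the highest untreated one. The log2 fold change was 0.86 (SE 0.06, adjusted p = 5.15e-09), or 1.82-fold with a 95% interval of 1.66 to 1.99. It exceeded in size that of 82.5% of tested genes.

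KLF2 lies on chromosome 19 (16324817 to 16327874, plus strand). It was a low-level gene, with 72, 78 and 81 reads in monensin libraries and 45, 44 and 37 reads in untreated libraries. In CPM these were 2.80, 3.12 and 3.47 with monensin and 1.80, 1.89 and 1.50 without exposure. The groups did not overlap, and the rise of 0.85 on the log2 scale (SE 0.17, adjusted p = 0.000304) was 1.81-fold with a 95% interval of 1.41 to 2.31. Counting error alone gives a coefficient of variation of 11.4% at this depth in monensin libraries and 15.4% in untreated libraries, about the observed 10.6% and 11.9%. The interval for KLF2 was wider than that for KLF6 at nearly the same fold change.

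KLF7, a factor studied mainly in neurons and adipocytes, lies on chromosome 2 (207074137 to 207167267, minus strand). It stood at 37.9, 38 and 35.3 CPM in monensin libraries and 21.6, 24.6 and 25.8 CPM in untreated libraries, without overlap. The difference was 0.63 on the log2 scale (SE 0.07, adjusted p = 7.28e-07), or 1.55-fold with a 95% interval of 1.40 to 1.71.

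KLF4, the activator tied most closely to monocyte differentiation, lies on chromosome 9 (107484852 to 107490482, minus strand) and changed much less. Monensin libraries held 39.3, 38.7 and 39.3 CPM, against 31.3, 30.5 and 36.9 CPM in untreated libraries. The monensin values were nearly equal, with a coefficient of variation of 0.975%, while untreated replicate 3 stood above the other two untreated libraries. The rise was 0.25 on the log2 scale (SE 0.07, adjusted p = 0.00425), or 1.19-fold with a 95% interval of 1.08 to 1.31, a size that 34.2% of tested genes fell short of. With the GC and length trends removed it was 0.14 with an adjusted p of 0.0590 and was no longer called.

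KLF3, the repressor that recruits CtBP, lies on chromosome 4 (38664196 to 38701042, plus strand). It had 35.0, 35.4 and 31.1 CPM in monensin libraries and 20.4, 21.9 and 22.7 CPM in untreated libraries. All 3 monensin values lay above all 3 untreated ones. The rise of 0.65 on the log2 scale (SE 0.07, adjusted p = 4.36e-07) was 1.57-fold with a 95% interval of 1.42 to 1.73. KLF3, KLF6 and KLF7 thus held values between 31.1 and 38 CPM with monensin and between 17.7 and 25.8 CPM without exposure.

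**Figure D2:**
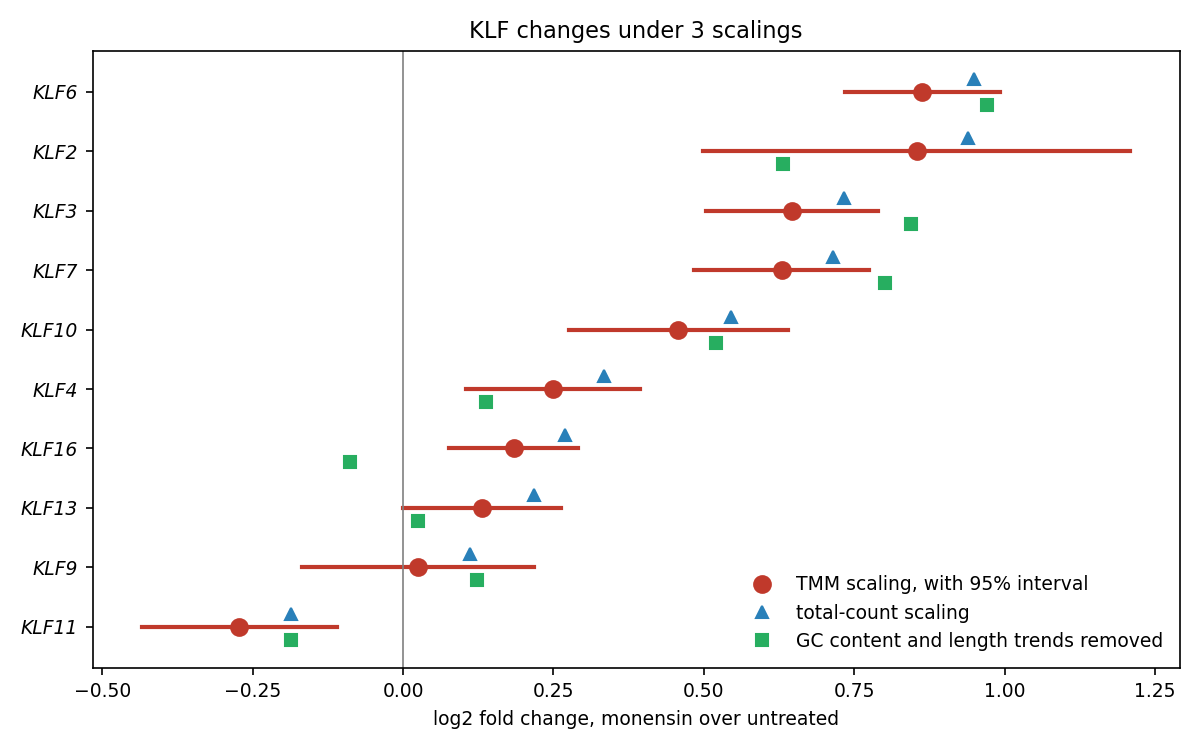
Log2 fold change of each KLF gene, monensin over untreated, with the 95% interval of the edgeR fit, the same under scaling to total counts (triangles) and the same after removal of GC content and length trends (squares). KLF6, KLF2, KLF3 and KLF7 lie between 0.63 and 0.86, KLF11 lies at -0.27, and KLF16 lies at 0.18 and at -0.09 with the trends removed.

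KLF10 and KLF11 were first found as genes that TGF-beta induces, and they share SIN3-binding motifs. They differed in direction. KLF10, on chromosome 8 (102648779 to 102655902, minus strand), had 39.3, 36.3 and 30.6 CPM in monensin libraries and 23.4, 26.4 and 27.7 CPM in untreated libraries. The groups did not overlap, although monensin replicate 3 and untreated replicate 3 were within 3 CPM of each other. The rise was 0.46 on the log2 scale (SE 0.09, adjusted p = 0.000205), or 1.37-fold with a 95% interval of 1.21 to 1.56.

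KLF11, on chromosome 2 (10042849 to 10054836, plus strand), had 27.7, 26.4 and 23.9 CPM in monensin libraries and 28.7, 30.8 and 34.8 CPM in untreated libraries. The highest monensin value lay just under the lowest untreated value. The log2 fold change was -0.27 (SE 0.08, adjusted p = 0.00498), or 0.828-fold with a 95% interval of 0.740 to 0.926. With the GC and length trends removed it was -0.19 and still called (adjusted p = 0.0248). The 2 intervals on the log2 scale, 0.28 to 0.64 for KLF10 and -0.43 to -0.11 for KLF11, lie on opposite sides of 0; the difference between the genes was not tested.

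KLF16 and KLF13 were the most abundant of the SIN3-binding members. KLF16, on chromosome 19 (1852399 to 1863568, minus strand), stood at 104, 108 and 118 CPM in monensin libraries and 97.7, 96.4 and 96.0 CPM in untreated libraries. The groups did not overlap, and the untreated values varied by 0.893%, less than the 2.06% that counting error gives. Monensin over untreated, the log2 ratio was 0.18 (SE 0.05, adjusted p = 0.00434), or 1.14-fold, with a 95% interval of 0.08 to 0.29 on the log2 scale. KLF16 is the most GC-rich of the 10 transcripts (67.8%), and removal of the GC and length trends put it at -0.09 with an adjusted p of 0.0437, a call in the other direction.

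KLF13, on chromosome 15 (31326855 to 31435665, plus strand), is known as a late activator of the chemokine gene CCL5 in T lymphocytes. It had 128, 123 and 115 CPM in monensin libraries and 101, 111 and 122 CPM in untreated libraries, and the groups overlapped through replicate 3 of each. Its log2 fold change was 0.13 (95% interval 0.00 to 0.26, adjusted p = 0.0708). Scaled to total counts it was 0.22 and called (adjusted p = 0.00771); that scaling puts the median of all genes at 0.11, against 0.02. It was also called without monensin replicate 3 (0.17, adjusted p = 0.0230) and without untreated replicate 3 (0.19, adjusted p = 0.0147). Leaving out any other single library gave no call, and the log2 fold change was lowest, at 0.06, without untreated replicate 1. With the GC and length trends removed KLF13 was at 0.02 and not called (adjusted p = 0.697).

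KLF9, a gene that glucocorticoids induce, lies on chromosome 9 (70384597 to 70414624, minus strand). Its values were 16.2, 15.6 and 12.7 CPM in monensin libraries and 13.8, 14.4 and 15.7 CPM in untreated libraries. The groups overlapped over most of their range. The log2 fold change was 0.02 (95% interval -0.17 to 0.22, adjusted p = 0.822), which leaves a change of up to 1.16-fold within the interval.

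Single libraries stood apart from the rest of their group for many of these genes. Monensin replicate 3 was the lowest of its group for 7 of the 10 genes and the highest for KLF2 and KLF16, the most GC-rich transcripts at 65.2% and 67.8%. Its log2 ratio to the mean of the other two monensin libraries was -0.33 for KLF9, -0.31 for KLF10 and -0.18 for KLF3, whose transcripts hold 46.3%, 47.2% and 41.5% GC, and it was 0.23 for KLF2 and 0.15 for KLF16. Untreated replicate 3 went the other way for these genes, with log2 ratios of 0.16 for KLF9, 0.16 for KLF10 and 0.10 for KLF3, against -0.30 for KLF2 and -0.02 for KLF16. Its highest log2 ratios were 0.26 for KLF4, 0.23 for KLF11 and 0.20 for KLF13, whose transcripts hold 55.0%, 46.8% and 57.6% GC. Monensin replicate 3 was at 0.01, -0.18 and -0.12 for KLF4, KLF11 and KLF13. Untreated replicate 1 had log2 ratios of -0.22 for KLF7, -0.21 for KLF10 and -0.21 for KLF13. Untreated replicate 3 had 0.16, 0.16 and 0.20 for these genes. In this group replicate 1 departed further for KLF3, KLF7, KLF10, KLF13 and KLF16, and replicate 3 for KLF2, KLF4, KLF6, KLF9 and KLF11. The part of GC content in these deviations was not tested. Without monensin replicate 3 or without untreated replicate 3 the number of the 10 genes called higher was 8, the added gene being KLF13, and the number called lower remained 1.

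**Figure D3:**
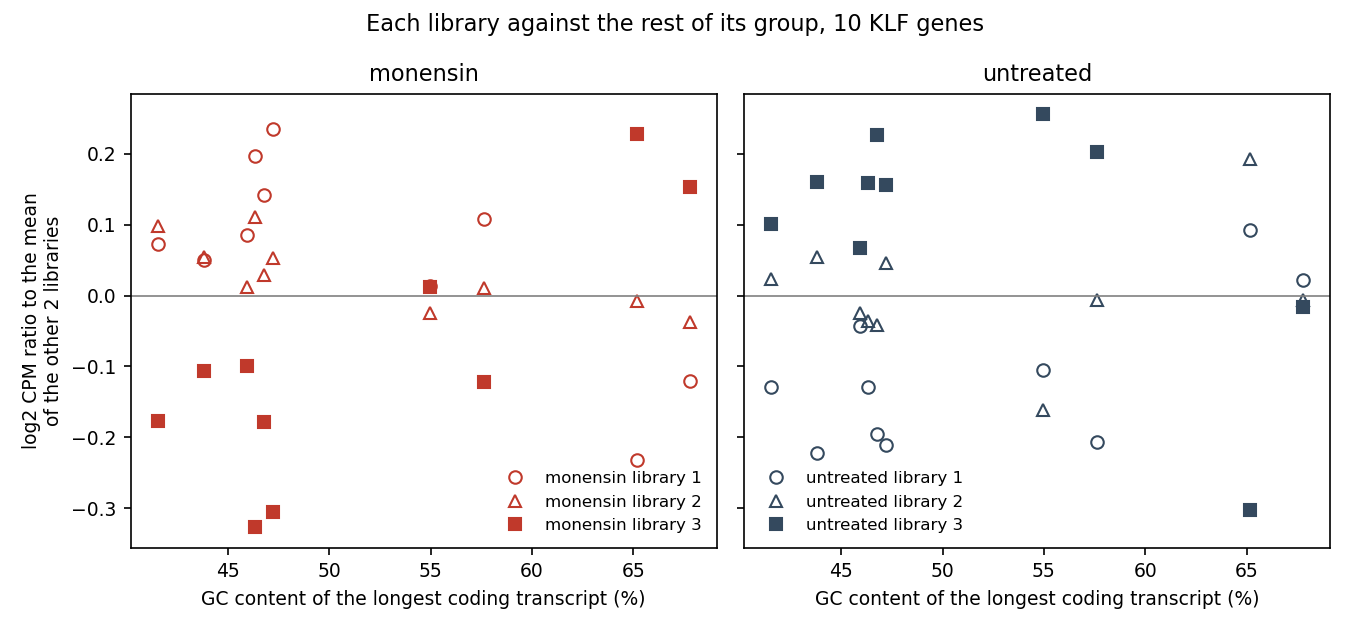
Log2 ratio of each library to the mean of the other 2 libraries of its group, plotted against the GC content of each gene's longest coding transcript in percent, for the monensin and the untreated libraries. Monensin replicate 3 runs from -0.33 for KLF9 to 0.23 for KLF2, and untreated replicate 3 from -0.30 for KLF2 to 0.26 for KLF4.

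Divided by exon length, the 10 genes spanned a wide range of levels. Exon length here is the merged length of all annotated exons of a gene. The order of genes therefore depends on the annotation, and the transcripts used in these cells were not determined. In monensin libraries KLF16 led with 37.2 ± 2.42 CPM per kb of exon (SD, n = 3), followed by KLF13 at 13.0 ± 0.689, KLF4 at 10.7 ± 0.104 and KLF10 at 8.84 ± 1.11 CPM per kb. Below them came KLF11 at 5.67 ± 0.423, KLF3 at 5.37 ± 0.372, KLF6 at 5.36 ± 0.230 and KLF7 at 4.0 ± 0.168 CPM per kb. KLF9 at 2.87 ± 0.364 and KLF2 at 1.55 ± 0.165 CPM per kb were lowest. Only KLF11, KLF3 and KLF6 overlapped one another in their library values in this group.

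Untreated libraries had the same 3 genes on top, with KLF16 at 32.7 ± 0.292, KLF13 at 11.9 ± 1.12 and KLF4 at 8.99 ± 0.953 CPM per kb, and KLF2 last at 0.857 ± 0.102 CPM per kb. KLF11 (6.85 ± 0.677) and KLF10 (6.45 ± 0.555) overlapped, as did KLF6 (2.95 ± 0.0809) with KLF9 (2.82 ± 0.192) and KLF9 with KLF7 (2.59 ± 0.234). KLF3 stood between these at 3.44 ± 0.185 CPM per kb. KLF10 thus stood above KLF11 without overlap with monensin, and the pair could not be ordered in untreated libraries.

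**Figure D4:**
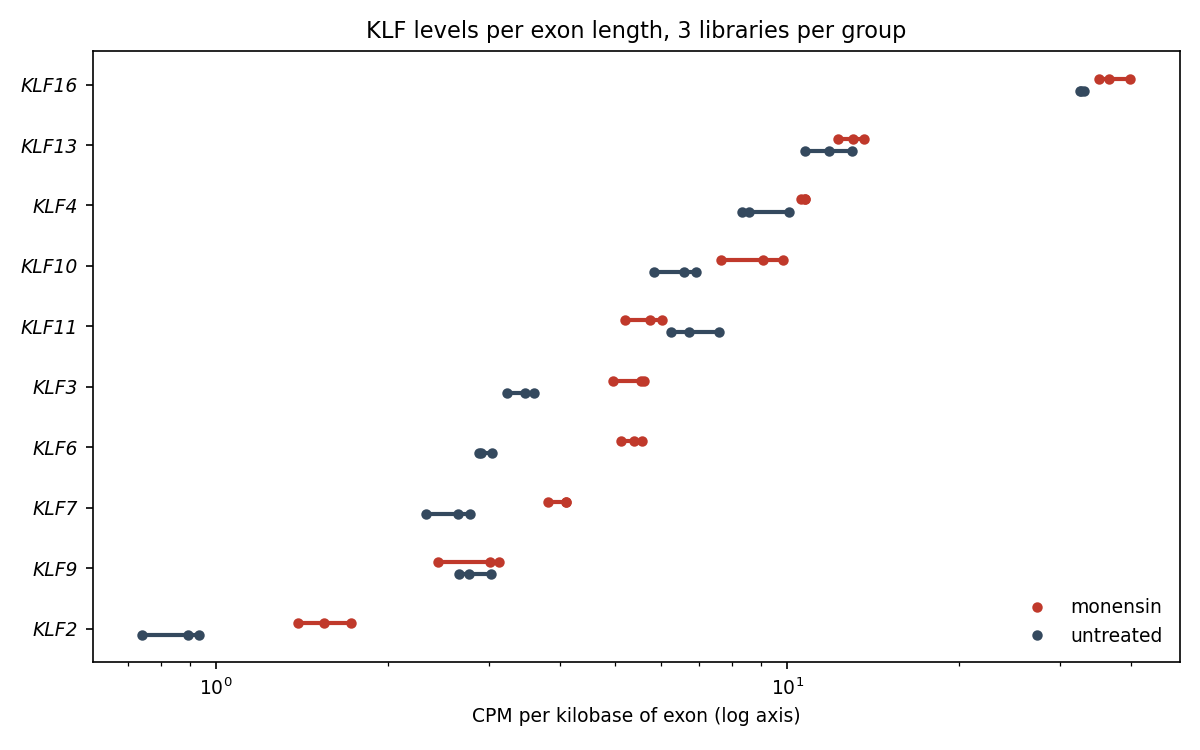
Level of each KLF gene in CPM per kb of exon on a log axis, monensin and untreated libraries, with points for libraries. KLF16 is highest in both groups (37.2 with monensin, 32.7 in untreated libraries) and KLF2 lowest (1.55 with monensin, 0.857 in untreated libraries).

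The 10 levels per kb added to 95.1, 94.6 and 93.8 in monensin libraries and 76.5, 78.8 and 83.3 in untreated libraries, without overlap. KLF16 was the largest part, at 37.2 with monensin and 32.7 in untreated libraries. Its log2 fold change was -0.09 with the GC and length trends removed. Neither the sum nor the shares were computed with those trends removed. Within this sum the makeup shifted. KLF6 made up 5.67% ± 0.201 with monensin and 3.71% ± 0.0643 in untreated libraries, and KLF3 made up 5.68% ± 0.358 with monensin and 4.32% ± 0.0870 in untreated libraries (SD, n = 3 each). KLF7 and KLF2 also held larger shares with monensin, by 0.981 and 0.561 percentage points. KLF11 held 5.99% ± 0.404 with monensin and 8.60% ± 0.472 in untreated libraries, a difference of -2.61 points, and KLF9 held 3.03% ± 0.365 with monensin and 3.55% ± 0.0866 in untreated libraries. Those 6 shares did not overlap between the groups. Shares of the same sum are tied to each other, and no such share was computed for genes outside the 10. KLF9 itself had 14.8 CPM with monensin and 14.6 CPM in untreated libraries, while the mean sum was 94.5 and 79.5. Without monensin replicate 3 the KLF9 difference in share was -0.309 points, against -0.517 points with all libraries. The shares of KLF4 (11.3% in both groups), KLF10, KLF13 and KLF16 overlapped, and KLF16 alone made up 39.4% ± 2.86 with monensin and 41.2% ± 2.11 in untreated libraries.

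Overlapping and similarly named rows held few reads. Annotated genes on the opposite strand overlap exons of KLF3 by 266 bases (KLF3-AS1), of KLF11 by 416 bases (AC104794.4) and of KLF16 by 483 bases (AC012615.3). KLF3-AS1 had 3, 5 and 1 reads in monensin libraries and 3, 0 and 1 in untreated libraries. None of the 8 rows overlapping one of the 10 genes, and none of the 12 antisense, intronic and pseudogene rows named after a KLF gene, had more than 5 reads in a library.

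Of the 8 other KLF genes, 4 passed the filter on low counts. KLF15, a regulator of metabolic genes that glucocorticoids induce, rose: 14.4, 15.9 and 16.9 CPM in monensin libraries, against 8.06, 7.98 and 7.24 CPM in untreated libraries, a difference of 1.02 on the log2 scale (SE 0.09, adjusted p = 3.99e-08). KLF5, which drives proliferation in epithelia, fell, with 1.44, 1.36 and 1.24 CPM with monensin and 2.93, 2.92 and 2.1 CPM without exposure (log2 fold change -0.97, SE 0.19, adjusted p = 0.000332). KLF8 (-0.18, adjusted p = 0.291) and KLF12 (-0.02, adjusted p = 0.920) did not pass, and with the GC and length trends removed both had log2 fold changes above 0, at 0.01 and 0.26. KLF1 and KLF17 had no reads, KLF14 had at most 3 in a library and KLF18 at most 1.

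The SP genes encode zinc finger factors that bind the same GC-rich sites. Of 9, 5 passed the filter. Of these, 4 fell and 0 rose, against 33.7% of all tested genes called lower and 34.1% called higher. The median of the 5 was -0.29 on the log2 scale. SP4 had 7.44, 7.64 and 6.04 CPM in monensin libraries and 13.5, 14.2 and 15.3 CPM in untreated libraries, a difference of -1.02 on the log2 scale (SE 0.09, adjusted p = 1.25e-07); the authors' deposited table lists it at -1.04. SP1, the founding member of the group, had 92.1 ± 5.62 CPM with monensin and 119 ± 11.5 CPM in untreated libraries (-0.36, adjusted p = 0.000138; -0.22 with the GC and length trends removed). SP3 was lower by 0.29 on the log2 scale (adjusted p = 0.000153) and lost its call with the GC and length trends removed (-0.02, adjusted p = 0.634). SP2 was lower by 0.17 (adjusted p = 0.0170) and lost its call with total counts (-0.09), without monensin replicate 1 (-0.15, adjusted p = 0.0663) and at an adjusted p under 0.01; with the trends removed it was at -0.31. SP9 had 63.9 CPM in both groups (0.00, adjusted p = 0.997), yet was called lower with the trends removed (-0.21, adjusted p = 0.00135). SP5, SP6, SP7 and SP8 did not pass the filter.

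**Figure D5:**
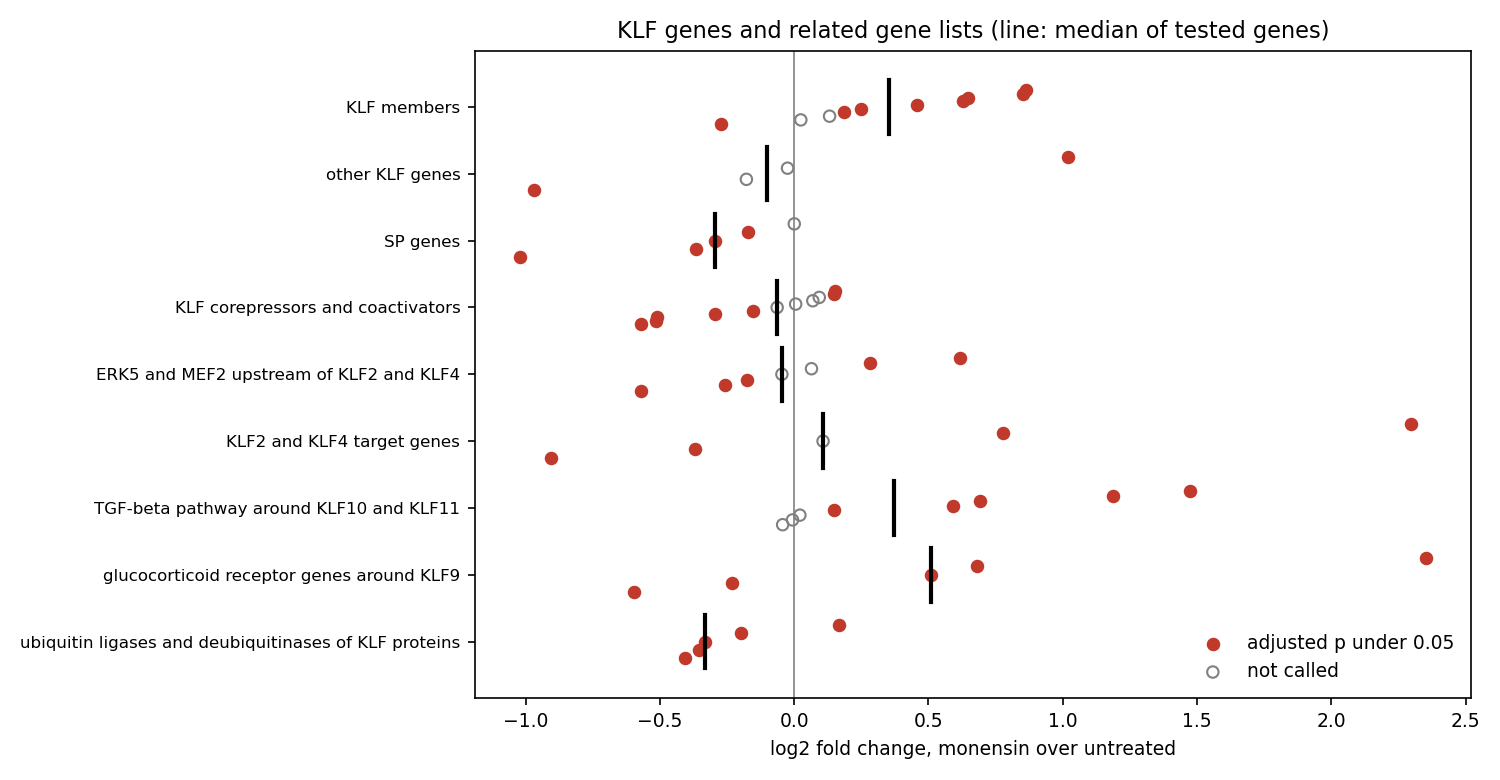
Log2 fold change, monensin over untreated, of each tested gene in the KLF set and the 8 related gene lists; each point is a gene and each bar a list median. The medians run from -0.33 for the ubiquitin ligase list to 0.51 for the glucocorticoid receptor list, with 0.35 for the 10 KLF genes.

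Of 11 cofactors through which these proteins act, 2 were called higher and 5 lower, against 34.1% and 33.7% of all tested genes. The list median was -0.06 on the log2 scale. SIN3A, the scaffold that KLF9, KLF10, KLF11, KLF13 and KLF16 bind, fell to 90.4 ± 3.78 CPM with monensin, against 134 ± 4.90 CPM in untreated libraries (-0.57, adjusted p = 3.68e-08). HDAC2, a histone deacetylase of the SIN3 complex, had 189 ± 0.751 CPM with monensin and 271 ± 7.48 CPM in untreated libraries (-0.52, adjusted p = 1.37e-08). EP300 (-0.51, adjusted p = 4.16e-06), KAT2B (-0.30, adjusted p = 0.00193) and CREBBP (-0.15, adjusted p = 0.0444), acetyltransferases that act as coactivators, were also called lower. The CREBBP values of the 2 groups overlapped, and its call was lost with the replicate block (-0.15, adjusted p = 0.0559), with total counts, with the stricter filter, and without monensin replicate 2, monensin replicate 3, untreated replicate 2 or untreated replicate 3 (adjusted p from 0.0801 to 0.180). CTBP1, the corepressor of KLF3, was higher by 0.15 (adjusted p = 0.00424), and SIN3B by 0.15 (adjusted p = 0.0148). The number called higher depended on the setting: it was 4 with total counts and 1 with DESeq2, where SIN3B lost its call, as it also did without untreated replicate 2 (0.13, adjusted p = 0.0759) and without untreated replicate 3 (0.14, adjusted p = 0.0540). With the GC and length trends removed, CTBP1 (-0.02) and SIN3B (-0.01) lost theirs, CTBP2 (0.21) and NCOR1 (0.22) were called higher, and HDAC2 was at -0.24 and KAT2B at -0.16, both still called.

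Upstream of KLF2 and KLF4, the ERK5 cascade runs from the kinases MAP3K2 and MAP3K3 through MAP2K5 to MAPK7 (ERK5 itself) and the MEF2 factors. Of these 7 genes 2 rose and 3 fell, against 34.1% of all tested genes called higher and 33.7% called lower. MAP2K5 had 33.0, 33.3 and 33.3 CPM in monensin libraries and 21.7, 22.1 and 21.1 CPM in untreated libraries (0.62, SE 0.06, adjusted p = 9.57e-08), and MAP3K2 was higher by 0.28 (adjusted p = 0.00176). MEF2C had 115 ± 4.17 CPM with monensin and 171 ± 5.76 CPM in untreated libraries (-0.57, adjusted p = 2.01e-08). MEF2D was lower by 0.26 (adjusted p = 1.62e-05) and MAPK7 by 0.17 (adjusted p = 0.0444). Calls for MAPK7 were lost with total counts, the stricter filter and DESeq2, without monensin replicate 1 (-0.12, adjusted p = 0.203) and without untreated replicate 3 (-0.14, adjusted p = 0.141). MAP3K3 (0.06, adjusted p = 0.354) and MEF2A (-0.05, adjusted p = 0.580) did not pass. Removing the GC and length trends put MAP3K2 at 0.61, MEF2C at -0.29, MAPK7 at -0.37 and MEF2A at 0.16, all called. Of the KLF genes whose promoters hold CTA and TAG set 4 bases apart, KLF2 rose and KLF11 fell. The KLF11 match has GCGG in its middle and is not a MEF2 core.

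Of 7 genes that KLF2 and KLF4 are known to regulate, 5 passed the filter, 2 rose and 2 fell. Over all tested genes the shares called were 34.1% higher and 33.7% lower. THBD, thrombomodulin, which KLF2 and KLF4 induce in endothelial cells, had 76.7, 73.6 and 69.4 CPM in monensin libraries and 138, 144 and 129 CPM in untreated libraries (-0.90, SE 0.05, adjusted p = 6.01e-10). CDKN1A, a cyclin-dependent kinase inhibitor and target of KLF4 and KLF6, had 25.7, 24.7 and 24.5 CPM with monensin and 13.8, 14.7 and 15.2 CPM without exposure (0.78, SE 0.07, adjusted p = 3.95e-08). CD14, a monocyte receptor for lipopolysaccharide, was low, with 2.37 ± 0.289 CPM with monensin and 0.480 ± 0.0691 CPM in untreated libraries (2.30, adjusted p = 2.55e-07). ITGB7, the integrin beta 7 chain, was lower by 0.37 (adjusted p = 0.00211). NOS3, the endothelial nitric oxide synthase, did not pass (0.11, adjusted p = 0.291).

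In the TGF-beta pathway, which induces KLF10 and KLF11, 5 of 8 tested genes rose and 0 fell. The shares over all tested genes were 34.1% and 33.7%, and the list's median was 0.37 on the log2 scale. The receptor TGFBR1 had 289, 293 and 259 CPM in monensin libraries and 94.5, 107 and 101 CPM in untreated libraries (1.48, SE 0.06, adjusted p = 4.08e-12), and the authors' deposited table lists it at 1.45. SKIL, a SMAD corepressor that TGF-beta induces, had 46.4, 43.4 and 38.3 CPM with monensin and 16.7, 16.6 and 22.9 CPM without exposure (1.19, SE 0.10, adjusted p = 5.67e-08). SMAD3, which carries the signal, rose by 0.69 (adjusted p = 6.84e-09), SMAD7, the inhibitory SMAD, by 0.59 (adjusted p = 1.37e-05), and the ligand TGFB1 by 0.15 (adjusted p = 0.00845). The call of TGFB1 was lost without untreated replicate 2 (0.13, adjusted p = 0.0531). With the GC and length trends removed, 6 were called higher, SMAD2 (0.18) and SMAD4 (0.25) among them, and TGFB1 was called lower (-0.08, adjusted p = 0.0289). KLF10 rose and KLF11 fell in the same libraries.

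Glucocorticoid receptor genes, listed because KLF9 is a target of the receptor, gave 3 higher and 2 lower of 5 tested. The shares of all tested genes called were 34.1% higher and 33.7% lower. TSC22D3, a glucocorticoid-induced leucine zipper protein, had 47.7, 49.1 and 48.0 CPM in monensin libraries and 9.10, 9.48 and 9.79 CPM in untreated libraries (2.35, SE 0.06, adjusted p = 6.57e-14). PER1, a clock gene, was higher by 0.51 (adjusted p = 1.89e-05) and the phosphatase gene DUSP1, at about 1.94 CPM with monensin and 1.21 CPM in untreated libraries, by 0.68 (adjusted p = 0.00756). FKBP5, another receptor target, fell to 86.8 ± 4.18 CPM with monensin, against 131 ± 7.11 CPM in untreated libraries (-0.60, adjusted p = 6.17e-08). NR3C1, the receptor itself, was lower by 0.23 (adjusted p = 0.00200), but with the GC and length trends removed the difference was 0.04 and not called, and with total counts it was -0.14. FKBP5 was at -0.37 and PER1 at 0.29 with the trends removed, both still called. KLF9 itself did not pass the test, while these other targets of the receptor were called in both directions.

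Enzymes that add ubiquitin to KLF proteins or remove it gave 1 higher and 4 lower of 5, against 34.1% and 33.7% of all tested genes. USP10, which removes ubiquitin from KLF4, had 106 ± 2.16 CPM with monensin and 140 ± 2.99 CPM in untreated libraries (-0.40, adjusted p = 4.99e-07). FBXW7, which marks KLF2 and KLF5 for degradation, had 28.0 ± 1.05 CPM with monensin and 35.3 ± 1.51 CPM in untreated libraries (-0.33, adjusted p = 0.000107). WWP1 (-0.35, adjusted p = 5.48e-05) lost its call with the GC and length trends removed (-0.10), and SMURF1 (-0.20, adjusted p = 0.0116) lost it with total counts (-0.11), without untreated replicate 3 (-0.17, adjusted p = 0.0503) and at an adjusted p under 0.01. FBXW7 was at -0.20 with the trends removed and still called. VHL, a ligase for KLF4, was higher by 0.17 (adjusted p = 0.00354), and by 0.25 with total counts. Protein levels of the KLF factors were not measured in these samples.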

How the data were processed

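The values used are raw gene counts, which the authors deposited without any normalization. Tools named in the submitters' processing notes are bcl2fastq, Trimmomatic 038, HISAT2 2.1.0, HTSeq 0.11.1 and the authors' DESeq2 1.22.2, with hg38 (GRCh38). The annotation release and the strand setting of counting are not given in the sources used here. Of each file, 5 tally lines, 21.2% to 22.0% of tallied alignments with monensin and 19.1% to 19.8% without, stayed out of library sizes. The authors also deposited a table of log2 fold changes for regulated genes, with no errors.

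The test was the quasi-likelihood F test of edgeR 4.0.16 (R 4.3.3) following filterByExpr and TMM scaling; treatment was its sole term, and p-values were Benjamini-Hochberg adjusted over all 16542 genes. CPM is per 1000000 of TMM-scaled library size. Positions, exon lengths and overlaps came from GENCODE 29, and GC content from the longest coding transcript. GC and length trends were removed as loess offsets of span 0.3. Counting errors given cover counting only, since reads lacking molecular identifiers may be copies of 1 molecule. No replicates were identical (chi-square per degree of freedom 1.93 to 5.09).

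The KLF genes and the lists were chosen with earlier results of these data known. The naming rule took the 10 genes, other KLF and SP genes, and per list the 4 largest called changes at an average log2 CPM of 2 or more. CD14, CREBBP, CTBP1, CTBP2, DUSP1, HDAC1, HDAC3, MAP3K3, MAPK7, MEF2A, NCOR1, NOS3, SIN3B, SMAD2, SMAD4, TGFB1 and VHL were added after their values were seen. Alternatives were RLE size factors, total counts, no filter, a filter of 1 CPM in 3 libraries and 50 counts, a replicate block, DESeq2 1.42.0, GC and length removal, an adjusted p under 0.01, leaving out each library, and, added after seeing the data, no mitochondrial genes. One marker list is not reported here.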

Additional observations from a re-analysis of the deposited data

How the results depend on the processing

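The calls of KLF2, KLF3, KLF6, KLF7, KLF10 and KLF11 held under every alternative run. With GC and length trends removed, KLF4 was at 0.14 and not called, KLF16 was at -0.089, and 2 of the 10 genes were called lower; among other genes KLF8 was at 0.013, KLF12 at 0.26, SP9 at -0.21 and NR3C1 at 0.040, and 1 TGF-beta gene and 1 glucocorticoid receptor gene were called lower. KLF13 passed with total counts (0.22) and with the stricter filter (0.15); KLF12 was at 0.061 with total counts. SP9, at 0.00, was at -0.0099 with RLE factors and with DESeq2, at -0.021 without a filter and at -0.00076 without mitochondrial genes. Corepressors and coactivators called higher numbered 4 with total counts, and 1 without a filter, with DESeq2 and at an adjusted p under 0.01. Leaving out 1 library at a time, log2 fold changes ran from -0.044 to 0.12 for KLF9, from 0.060 to 0.19 for KLF13, from -0.26 to 0.18 for KLF12 and from -0.058 to 0.054 for SP9, and the corepressors called higher from 1 to 2. Without division by length, share differences were 0.231 points for KLF2, 1.73 for KLF3, 2.45 for KLF6, 1.83 for KLF7 and -2.56 for KLF13. The causes of these shifts were not tested.

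Replicate numbers are shared by the groups but correlations of same-numbered libraries' deviations were -0.12, 0.14 and 0.04, so the numbers were not taken as pairs; nor did every library correlate best with its own number. With the replicate block KLF2 was at 0.85, no call of a gene taken by the naming rule changed, and cofactors called lower numbered 4, against 5, without CREBBP. Among the 10 KLF genes KLF2 had the fewest reads, 37 to 81 per library.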
